A study of Mus musculus with 2 samples.

Results

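Lymphatic endothelial cells line the lymph-carrying sinuses of a lymph node, and the cells described here are those of peripheral and mesenteric nodes from wild-type (WT) and Xbp1-KO mice. They were chosen by the counts of 7 marker genes in each cell. A barcode was kept with at least 500 detected genes, at most 10% of its UMIs (molecular barcodes, each counted once per captured RNA) from mitochondrial genes, and a top hashtag of at least 10 UMIs that was at least 3 times the next. It then counted as lymphatic with at least 2 UMIs over Prox1, Pdpn, Mmrn1 and Lyve1, and with more of these than of the blood endothelial genes Flt1, Ly6c1 and Cd34. Of 10612 barcodes in the series, 9919 passed the cell filters and 3779 were lymphatic, while 5753 were blood endothelial by the mirrored rule and 387 were neither.

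Each of the 2 libraries holds 4 pools marked by hashtags, namely WT peripheral (HT4), WT mesenteric (HT5), Xbp1-KO peripheral (HT6) and Xbp1-KO mesenteric (HT7) nodes. Every animal, WT included, had received tamoxifen, the drug that switches on inducible Cre recombinases. Cells were freed by enzymes, depleted of CD45-positive blood cells with beads and sorted as endothelial cells. The Cre line and the cells it acts in, the deleted exons, and the number, age and sex of the animals are not given in the sources used here, so a pool may hold several animals and the share of recombined cells is not known. Whether the 2 libraries came from separate animals is not stated either, and p-values measure the spread between these pools. Raw counts were summed per pool, and each Xbp1-KO pool was compared with the WT pool of the same node type and library, 4 pairs in all. Levels below are in CPM, UMI counts brought to a common total and scaled with edgeR's trimmed mean of M-values. Lists of 4 values give the peripheral and mesenteric pools of library 1 and then those of library 2.

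XBP1 is a transcription factor that acts in the unfolded protein response, the programme by which cells match their folding capacity to their protein output. The sensor IRE1, a kinase and nuclease in the membrane of the endoplasmic reticulum (ER), cuts a short intron out of Xbp1 mRNA, and the spliced mRNA encodes the active factor, which in secretory cells drives genes for protein import into the ER, folding, glycosylation, export and disposal. The same nuclease can degrade other mRNAs near the ER when it is highly active, and the sister sensors PERK and ATF6 run their own branches through ATF4 and through ER chaperone genes. Gene counts cannot tell spliced from unspliced Xbp1, so the activity of the factor was not measured.

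The 8 pools held 993, 445, 245 and 65 lymphatic cells for WT and 1314, 164, 332 and 221 for Xbp1-KO. Their sums ran from 426851 UMIs in the mesenteric WT pool of library 2, the smallest, to 6930119 in the peripheral Xbp1-KO pool of library 1, and the median cell of a pool had 5008 to 7384 UMIs. Lymphatic cells were 44.3%, 25.1%, 45.0% and 15.4% of the filtered cells in the WT pools and 55.2%, 21.1%, 39.1% and 23.8% in the Xbp1-KO pools, higher with the knockout in 1 pair of each node type and lower in the other. Prox1, the master regulator of lymphatic identity, was detected in 86.0% to 95.9% of the cells of a pool. Of the markers the rule did not use, Flt4, the receptor of the lymphatic growth factor VEGF-C, averaged 293 CPM in the WT lymphatic sums against 39.1 CPM in the WT blood endothelial sums, and the secreted glycoprotein gene Reln averaged 59.4 against 0.827 CPM, so that the lymphatic label held for these genes. The chemokine gene Ccl21a went the other way, at 410 against 3813 CPM, and the fenestra gene Plvap stood at 1125 against 2603 CPM. At the edge of the rule, 171 of the cells had exactly 2 marker UMIs and a Flt4 level of 139.0 CPM, 3608 had 3 or more and 334 CPM, and 119 filtered cells just outside, with 1 marker UMI and no blood UMI, had 152 CPM. Sharing of barcodes between libraries was rare, with 3 in all and 1 among lymphatic cells.

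Sex-linked transcripts changed sides between the libraries. Xist, the RNA of the inactive X chromosome, was found in 94.5% and 91.5% of the Xbp1-KO cells of library 1 and in 92.7% and 89.2% of the WT cells of library 2, but in 6.45% or fewer of the cells of the other 4 pools. Ddx3y, a Y-chromosome gene, was found in 41.2% and 38.4% of the WT cells of library 1 and in 46.7% and 51.1% of the Xbp1-KO cells of library 2. Over both libraries these transcripts thus lay on each side of the genotype comparison, while within 1 library they and the genotype cannot be told apart. The layout does not make them cancel, and library 1 held 2916 of the 3779 lymphatic cells. In the fit of all 4 pairs 5 of the 6 sex-linked genes tested were below 0, with a median log2 difference of -0.84, and 0 passed.

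Xbp1, the targeted gene, was lower in 3 of the 4 Xbp1-KO pools than in their WT partners. It is annotated at chr11:5520659-5525893 on the plus strand (GRCm38, GENCODE M21). Its level was 125, 115, 100.2 and 53.9 CPM in the WT pools and 48.4, 52.5, 52.0 and 55.9 CPM in the Xbp1-KO pools. The exception was the mesenteric pair of library 2, in which the WT value rested on 22 UMIs from 65 cells. The paired fit of all 4 pairs gave a log2 difference of -1.02 ± 0.16 (SE) that missed the threshold at an adjusted p of 0.0582, after Benjamini-Hochberg correction in edgeR's quasi-likelihood test. Without that mesenteric pair the difference was -1.19 and passed, and over 22 alternative settings it ran from -1.30 to -0.60 and passed in 10. A fit of all pools with a genotype effect for each library gave -1.29 in library 1 (adjusted p = 3.59e-04) and -0.63 in library 2 (adjusted p = 0.371). The difference between them did not pass (adjusted p = 1). A fit of all pools with an effect for each node type had Xbp1 fall by 1.20 ± 0.17 on the log2 scale in peripheral nodes (adjusted p = 0.0057). In mesenteric nodes the value was -0.69 ± 0.23 (adjusted p = 0.179). The peripheral call was lost without the peripheral pair of library 1, at -0.95, among cells with at least 3 marker UMIs, at -1.19, and among those with no blood marker UMI, at -1.21. It was also lost with thinned sums, at -1.12, with equal cell numbers, at -1.47, with at least 10 UMIs in every sum and in DESeq2. The mesenteric value was 0.05 without the mesenteric pair of library 1 and -1.14 without that of library 2. The difference between the node types, 0.51, did not pass the test (adjusted p = 0.933). Blood endothelial cells of the same pools averaged 225 CPM with WT and 147 CPM with the knockout, lower in 4 of 4 pairs, at -0.61 ± 0.09 and an adjusted p of 0.0932. Counts at the 3′ end of a gene can also come from a transcript that has lost an internal exon, so what remains of Xbp1 in the Xbp1-KO pools does not measure how many cells kept the intact gene.

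**Figure D1:**
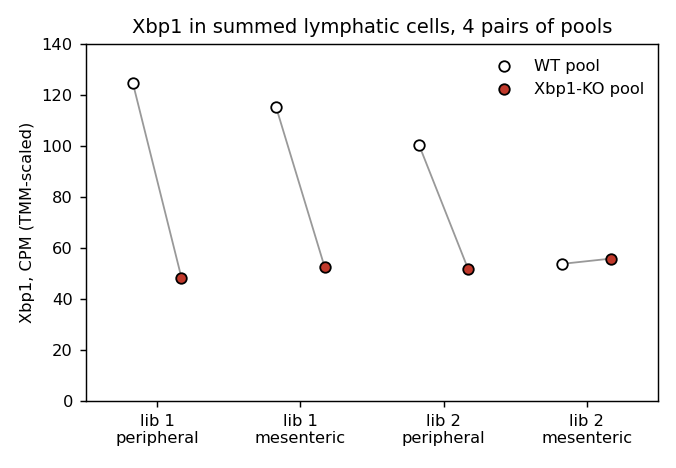
Xbp1 in the summed lymphatic cells, in CPM, with 1 open point for each WT pool and 1 filled point for each Xbp1-KO pool, lines joining the 4 pairs. The first 3 pairs go from 100.2 to 125 CPM down to 48.4 to 52.5 CPM, and the mesenteric pair of library 2 lies at 53.9 and 55.9 CPM.

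Over both node types, 6 of 10269 tested genes passed an adjusted p of 0.05, which is 0.0584% of them, and 730 had an unadjusted p under 0.05. Rgs2, Adam33, Ifit2 and Ehd3 rose and Duox2 and Rpl10 fell, each in the same direction in 4 of 4 pairs. None of the 6 is in the lists of ER genes described below. The count depended on single pairs. Without the peripheral pair of library 1 it was 95, of which 5 were among the 6, without library 1 it was 66, of which 0 were among the 6 and 6 were sex-linked, and without library 2 it was 13, of which 1 was among the 6 and 5 were sex-linked. Without the mesenteric pair of library 1 it was 0 (419 at an unadjusted p under 0.05), without that of library 2 it was 1, and without the peripheral pair of library 2 it was 2.

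Rgs2 encodes a brake on G-protein signalling, which shortens the response of vessels to contracting hormones (chr1:143999338-144004161, minus strand). It was measured at 216, 133, 163 and 149 CPM in the WT pools and 278, 279, 264 and 246 CPM in the Xbp1-KO pools. All Xbp1-KO pools lay above all WT pools. Of all 10262 tested genes that the rule did not use, 110 were separated in this way and 111 in the reverse. The log2 difference of Rgs2 was 0.69 ± 0.11 (adjusted p = 0.0127), and it passed again under 13 of 22 alternative settings, with values from 0.57 to 0.90. Adam33, a membrane-anchored metalloprotease gene at chr2:131050591-131063814, stood at 71.3, 87.0, 49.5 and 73.5 CPM in the WT pools and 98.8, 149.8, 64.8 and 130.1 CPM in the Xbp1-KO pools. The groups overlapped, with every mesenteric Xbp1-KO pool above the rest, and the difference was 0.59 ± 0.11 (adjusted p = 0.0405).

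Ifit2, an interferon-induced gene whose product binds foreign RNA and restrains translation, lies at chr19:34550694-34576419. Its levels were 115, 148, 84.4 and 100.4 CPM in the WT pools and 151, 210.1, 112 and 215 CPM in the Xbp1-KO pools. It rose by 0.54 ± 0.10 (adjusted p = 0.0412). The groups overlapped, since the peripheral Xbp1-KO pool of library 2 lay below the WT pools of library 1. Ehd3, which encodes an ATPase of membrane recycling from endosomes, lies at chr17:73804134-73832094. Counts gave 129, 165, 78.5 and 115 CPM in the WT pools and 156, 277, 112 and 181 CPM in the Xbp1-KO pools, a rise of 0.52 ± 0.10 (adjusted p = 0.0412). Its groups overlapped too, with both mesenteric Xbp1-KO pools above every WT pool.

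Duox2 encodes a hydrogen peroxide-producing NADPH oxidase that is folded and matured in the ER (chr2:122279247-122298449, minus strand). It was rare, at 21.5, 33.3, 31.0 and 29.4 CPM in the WT pools and 11.4, 16.8, 18.3 and 13.4 CPM in the Xbp1-KO pools. Every Xbp1-KO pool lay below every WT pool, and it fell by 0.91 ± 0.18 (adjusted p = 0.0412). The mesenteric Xbp1-KO pool of library 1 rested on 15 UMIs in 6 cells, of which 6 UMIs came from 1 cell. Rpl10, a protein of the large ribosomal subunit, lies at chrX:74270812-74273135. Its levels were 1279, 1660.0, 1485 and 2344 CPM in the WT pools and 889.8, 1162, 1276 and 1501 CPM in the Xbp1-KO pools, a fall of 0.47 ± 0.09 (adjusted p = 0.0405), and since Rpl10 has processed copies in the genome that share its sequence, its count is uncertain. All 6 calls were lost in DESeq2 (302 genes at an unadjusted p under 0.05), in edgeR without the pair term (427) or without robust fitting (706), and after removal of the deepest 5% of cells (719). Each of the calls other than Rgs2 passed in 5 to 10 of its alternative settings.

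**Figure D2:**
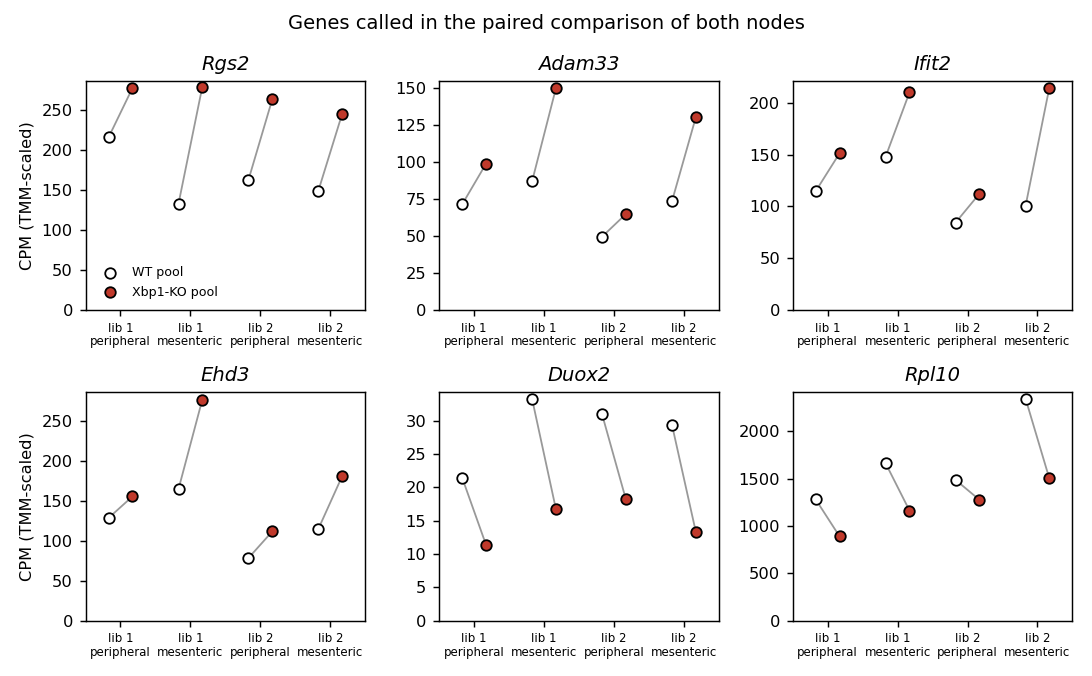
Levels of the 6 genes called over both node types, in CPM on axes that start at 0, with open points for WT pools, filled points for Xbp1-KO pools and lines joining the 4 pairs. All lines of Rgs2, Adam33, Ifit2 and Ehd3 slope up and all lines of Duox2 and Rpl10 slope down, and the groups do not overlap for Rgs2 and Duox2.

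Genes of the machinery that feeds new proteins into the ER mostly had lower levels in the Xbp1-KO pools, and no member passed the adjusted test over both node types. Of 35 genes for translocation, signal peptide removal and N-glycan transfer, all of them tested, 32 had a log2 difference below 0, and the median was -0.15. Of all 10262 tested genes that the rule did not use, 5142 were below 0 and the median was 0.00. In 4 of 4 pairs 13 members were lower, and none was higher. Over all tested genes, 8.87% were lower in 4 of 4 pairs and 8.37% were higher. At an unadjusted p under 0.05, 9 members were lower and 0 higher, where 4.14% of all tested genes were lower and 2.97% higher. Over 22 alternative settings the list's median ran from -0.19 to -0.10. Its 2 members with the smallest p were Spcs2 and Ostc. No set test was run, and the members share libraries, so these counts describe the list.

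Spcs2 encodes a subunit of the signal peptidase complex, which cuts signal peptides off proteins as they enter the ER. It measured 139, 152, 117 and 157 CPM in the WT pools and 97.1, 115, 102 and 103 CPM in the Xbp1-KO pools. The highest Xbp1-KO pool lay just below the lowest WT pool, at a log2 difference of -0.42 ± 0.09 (adjusted p = 0.121). Of all 10262 tested genes that the rule did not use, 111 had every Xbp1-KO pool below every WT pool. Ostc, a subunit of the oligosaccharyltransferase that docks to the translocon, measured 89.4, 135, 79.1 and 122 CPM in the WT pools and 66.4, 74.9, 75.3 and 79.7 CPM in the Xbp1-KO pools. Its overall difference was -0.47 ± 0.12 (adjusted p = 0.192), and in mesenteric nodes it fell by 0.75 ± 0.17 (adjusted p = 0.0113). Further members, picked after their values were seen, were the translocon subunits Sec61b at -0.38 ± 0.10 and Sec61g at -0.32 ± 0.10, the signal peptidase subunit Sec11c at -0.29 ± 0.09 and the oligosaccharyltransferase subunit Krtcap2 at -0.26 ± 0.10, each lower in 4 of 4 pairs with adjusted p-values from 0.219 to 0.531. The smallest drop was in the peripheral pair of library 2 for all 4 of these genes.

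Most ER chaperones and folding enzymes lay below 0, while the chaperone BiP lay above it in every pair. Of 33 measured genes 32 were tested, 27 were below 0 and the median was -0.17, which became -0.11 without library 1. In 4 of 4 pairs 8 were lower and 3 were higher, which is 25% and 9.38% of the list, beside 8.87% and 8.37% over all tested genes. None passed the adjusted test over both node types. Hspa5, the Hsp70 chaperone BiP, stood at 1024, 731, 729 and 529 CPM in the WT pools and 1178, 843, 894 and 990.0 CPM in the Xbp1-KO pools. It was higher with the knockout in 4 of 4 pairs, at 0.39 ± 0.11 over both node types (adjusted p = 0.324), and it rose in mesenteric nodes by 0.54 ± 0.14 (adjusted p = 0.0413). The mesenteric log2 ratio, on CPM plus 1, was 0.21 in library 1 and 0.90 in library 2, and with the library 2 pair left out the fitted value was 0.20 and did not pass (adjusted p = 0.782). It also did not pass among cells with at least 3 lymphatic marker UMIs (0.53, adjusted p = 0.0754), with no blood marker UMI (0.51, adjusted p = 0.0849) or with no UMI of other cell types (0.58, adjusted p = 0.105), nor with equal cell numbers (0.51, adjusted p = 0.480). The other members above 0 in every pair were the lectin chaperone Calr at 0.18 ± 0.09 and the Hsp90 chaperone Hsp90b1 at 0.12 ± 0.09. Fkbp2, a prolyl isomerase of the ER lumen, measured 142, 187, 115 and 120.0 CPM in the WT pools and 97.1, 137, 104 and 113 CPM in the Xbp1-KO pools. Its difference was -0.35 ± 0.10 (adjusted p = 0.336), and the disulphide enzymes Txndc5 at -0.37 ± 0.13, Txndc11 at -0.42 ± 0.15 and P4hb at -0.23 ± 0.09 were lower in 4 of 4 pairs as well. Apart from Hspa5 and Fkbp2, the members named here were picked after their values were seen.

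**Figure D3:**
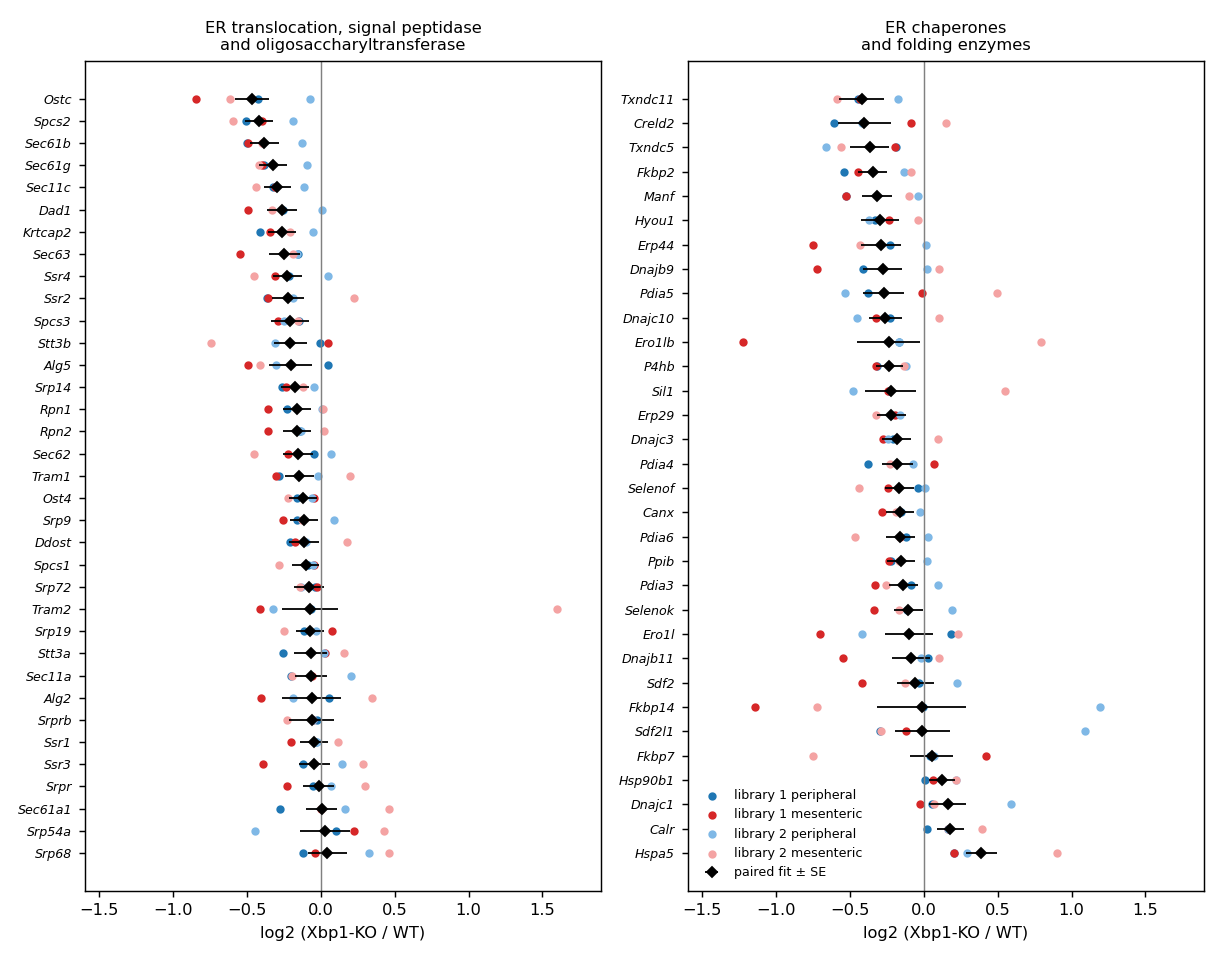
Log2 ratios of Xbp1-KO to WT for each tested gene of the translocation list (left) and of the chaperone list (right), with 1 coloured point for each of the 4 pairs (CPM plus 1) and a black diamond with its SE for the paired fit. Diamonds lie left of 0 for 32 of 35 and 27 of 32 genes, and Hspa5 lies farthest to the right at 0.39.

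Promoter windows of RefSeq (GRCm38.p6, 250 bases before to 50 after a gene's start) were searched on both strands for letters known from XBP1 and ATF6 binding. These were the core TGACGTGG, the shorter GCCACGT, which overlaps the core where both occur in TGACGTGGC, and the ER stress element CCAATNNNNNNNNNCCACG. Any of the 3 was found in 4.53% of the 10492 windows of 8175 tested genes and in 3.15% of all 32851 windows. It was found in 17.9% of 28 windows of the translocation list, which matched for 26 genes, in 38.9% of 36 windows of the chaperone list (27 genes) and in 35.9% of 39 windows of the list for transport from ER to Golgi (35 genes). The list for degradation, whose median difference was 0.00, held it for 6 of 14 matched genes, beside 5 of 26, 14 of 27 and 14 of 35 in the former lists. The following windows are those of 4 genes that were lower in 4 of 4 pairs and of Hspa5, which was higher in 4 of 4, each with its match in capitals. All but Hspa5 were picked after their values were seen. They are Sec63 (chr10:42761246-42761545, plus strand), Spcs1 (chr14:31001617-31001916, minus strand), P4hb (chr11:120573204-120573503, minus strand), Txndc5 (chr13:38527865-38528164, minus strand) and Hspa5 (chr2:34771840-34772139, plus strand), shown because genes on both sides of 0 carried such letters.
Sec63: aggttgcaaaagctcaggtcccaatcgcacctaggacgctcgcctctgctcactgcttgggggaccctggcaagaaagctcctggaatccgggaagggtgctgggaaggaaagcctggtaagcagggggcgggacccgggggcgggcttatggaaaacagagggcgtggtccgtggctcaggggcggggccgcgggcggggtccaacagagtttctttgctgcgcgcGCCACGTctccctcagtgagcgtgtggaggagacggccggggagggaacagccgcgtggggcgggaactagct
Spcs1: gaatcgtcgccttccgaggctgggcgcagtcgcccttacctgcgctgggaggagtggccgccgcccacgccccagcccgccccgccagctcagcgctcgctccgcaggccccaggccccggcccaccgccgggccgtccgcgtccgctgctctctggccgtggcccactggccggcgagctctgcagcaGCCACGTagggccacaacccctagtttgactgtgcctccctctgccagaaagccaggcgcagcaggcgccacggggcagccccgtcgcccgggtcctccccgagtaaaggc
P4hb: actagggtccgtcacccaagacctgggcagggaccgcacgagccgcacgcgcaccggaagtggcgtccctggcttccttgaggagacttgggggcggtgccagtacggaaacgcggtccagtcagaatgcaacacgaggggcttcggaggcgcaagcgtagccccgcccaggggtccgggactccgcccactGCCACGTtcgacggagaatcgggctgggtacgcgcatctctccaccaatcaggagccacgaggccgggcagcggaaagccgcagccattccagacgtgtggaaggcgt
Txndc5: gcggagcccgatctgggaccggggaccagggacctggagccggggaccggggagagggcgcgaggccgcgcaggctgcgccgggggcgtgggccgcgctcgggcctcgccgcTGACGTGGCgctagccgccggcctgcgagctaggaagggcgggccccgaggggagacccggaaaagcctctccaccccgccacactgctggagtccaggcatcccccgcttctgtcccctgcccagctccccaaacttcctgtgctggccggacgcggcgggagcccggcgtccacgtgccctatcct
Hspa5: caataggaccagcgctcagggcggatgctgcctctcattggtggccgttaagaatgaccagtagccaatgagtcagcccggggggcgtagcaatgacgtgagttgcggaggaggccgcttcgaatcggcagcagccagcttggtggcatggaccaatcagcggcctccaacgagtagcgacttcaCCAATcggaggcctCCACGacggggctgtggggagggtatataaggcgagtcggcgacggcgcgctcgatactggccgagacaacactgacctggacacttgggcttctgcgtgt
Sec63, which helps chaperones pull chains through the translocon, and Spcs1, a signal peptidase subunit, held the GCCACGT letters, and so did P4hb. Txndc5 held the core and the shorter letters in 1 overlapping run. Hspa5 held the ER stress element. Sec63 stood at -0.25 ± 0.10 and Spcs1 at -0.10 ± 0.09 on the log2 scale. The windows of Spcs2, Sec61b, Sec61g, Krtcap2, Fkbp2 and Xbp1 itself held none of the 3, which says only that these letters are not in these windows.

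Genes that carry cargo from the ER to the Golgi and genes that dispose of misfolded proteins lay nearer to 0. Of 39 tested transport genes 27 were below 0, with a median of -0.05. In 4 of 4 pairs 6 were lower and 1 higher, which is 15.4% and 2.56%, beside 8.87% and 8.37% over all tested genes. Cope, a coat subunit of the vesicles that return to the ER, had -0.31 ± 0.10 and Tmed2, a cargo receptor of the early secretory pathway, -0.25 ± 0.09, and neither passed. Of 19 degradation genes 10 were below 0, and the median was 0.00, from -0.08 to 0.06 over the alternatives. Selenos, a selenoprotein of the channel that moves proteins out of the ER, had 141, 148, 118 and 95.5 CPM in the WT pools and 94.9, 91.7, 96.3 and 96.1 CPM in the Xbp1-KO pools. Its difference of -0.44 ± 0.10 did not pass (adjusted p = 0.171), and Ube2g2, its ubiquitin-conjugating partner in the pathway, had -0.15 ± 0.12.

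No sensor of the unfolded protein response passed. Among 9 tested sensors and CREB3 family genes 6 were below 0 and 0 went the same way in 4 of 4 pairs. Ern1, which encodes IRE1, stood at 28.4, 29.7, 19.8 and 29.4 CPM in the WT pools and 31.8, 42.5, 19.6 and 28.0 CPM in the Xbp1-KO pools, at 0.18 ± 0.15, and Atf6 at -0.22 ± 0.14. Of the 5 tested mRNAs known as substrates of the IRE1 nuclease, 4 were below 0 with a median of -0.47. The value rested on library 1, since without it the median was -0.05 with 2 of 4 tested genes below 0, and without its mesenteric pair it was -0.21. Bloc1s1, a lysosome-positioning subunit and the best known of these substrates, measured 48.5, 55.0, 49.5 and 73.5 CPM in the WT pools and 27.9, 35.8, 48.4 and 34.7 CPM in the Xbp1-KO pools. Every Xbp1-KO pool lay below the lowest WT pool, as for 111 of all 10262 tested genes that the rule did not use. The peripheral pair of library 2 was almost level, and the difference of -0.61 ± 0.15 did not pass (adjusted p = 0.182). Hgsnat, a lysosomal acetyltransferase, had -0.47 ± 0.17.

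Of 17 tested targets of PERK and ATF4, 6 were below 0 and the median was 0.12. Without library 2 the median was 0.05, without its mesenteric pair 0.04 and without the peripheral pair of library 1 0.08. Ppp1r15a, the phosphatase subunit that ends translational arrest, stood at 931, 1052, 730.1 and 747 CPM in the WT pools and 1056, 1541, 909 and 1664 CPM in the Xbp1-KO pools. It rose in mesenteric nodes by 0.84 ± 0.13 (adjusted p = 2.39e-04) and had 0.54 ± 0.15 over both. The stress sensor Sesn2 had 0.55 ± 0.24. Of 21 lipid synthesis genes 3 were below 0 and the median was 0.12, and none was called. The median was 0.02 without library 2, with 8 of 22 genes below 0, and 0.26 without library 1, and without the mesenteric pair of library 2 there were 9 of 21 below 0.

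Peripheral and mesenteric nodes differed in how many genes passed. In peripheral nodes 1 gene passed, Xbp1, which is 0.00974% of those tested, while in mesenteric nodes 172 passed (1.67%), 96 higher and 76 lower. The difference between the node types was itself tested and passed for 40 genes (0.39%), of which 34 were more positive in mesenteric nodes. These counts depended on single pairs. Without the mesenteric pair of library 2, whose WT pool held 65 cells, 15 genes passed in mesenteric nodes and 8 differed between node types, and with 65 cells drawn from every pool the numbers were 23 and 0. Without the mesenteric pair of library 1 they were 173, of which 86 were among the 172, and 68. With either mesenteric pair left out, 1 Xbp1-KO pool is set against 1 WT pool, which is assumed to vary like the peripheral pools, and within 1 library genotype and sex-linked transcripts cannot be told apart. Xbp1 itself did not pass in mesenteric nodes (adjusted p = 0.179), and in the mesenteric pair of library 2 it stood at 53.9 CPM in the WT and 55.9 CPM in the Xbp1-KO pool. In peripheral nodes 13 genes passed without the peripheral pair of library 1, 14 without that of library 2 and 2 without the mesenteric pair of library 2. DESeq2 called 57 genes in mesenteric nodes and 8 for the difference.

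Of 23 tested cytosolic heat shock genes, which protect proteins during stress, 9 rose in the mesenteric Xbp1-KO pools and 0 fell, and 7 differed between the node types. Of all tested genes, 1.67% were called in mesenteric nodes and 0.39% differed between node types. The list median was 0.38 against -0.02 in peripheral nodes and -0.01 over all tested genes in mesenteric ones. Dnajb1, a co-chaperone of Hsp70, measured 311 and 421 CPM in the mesenteric WT pools of library 1 and library 2, and 779 and 871 CPM in the Xbp1-KO pools. It rose by 1.19 ± 0.14 (adjusted p = 6.98e-07), against -0.05 ± 0.13 in peripheral nodes, a difference of 1.24 (adjusted p = 2.82e-04). Bag3, which hands Hsp70 clients to autophagy, measured 68.3 and 93.1 CPM in the mesenteric WT pools of library 1 and library 2, and 159 and 282 CPM in the Xbp1-KO pools. Both mesenteric Xbp1-KO pools lay above all WT pools, and it rose by 1.37 ± 0.15 (adjusted p = 2.74e-07), with a difference between node types of 1.34 (adjusted p = 1.70e-04). Among cells with no UMI of other cell types that difference was 1.01 and did not pass (adjusted p = 0.130). Hsp90aa1, the inducible cytosolic Hsp90, rose by 1.09 ± 0.13, from 661 to 1473 CPM in library 1 and from 855 to 1735 CPM in library 2. Hspa1a and Hspa1b, near-identical copies whose reads may be shared, rose by 1.21 ± 0.14 and 0.77 ± 0.11, and Dnajb4, a further Hsp70 partner, had 0.25 ± 0.11 over both node types without passing. Hspa1a was picked after its values were seen. Without the mesenteric pair of library 2, 5 genes of the list passed in library 1, Dnajb1 at 1.32 and Bag3 at 1.21 among them, while the difference of Bag3 between node types no longer passed, at 1.17.

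Immediate-early genes respond within minutes to growth signals and stress, and their list was drawn up as one of immediate-early and dissociation genes. Cells were freed by enzymes, and whether that step differed between pools was not tested. Of 21 tested genes of the list, 9 rose in mesenteric nodes and 0 fell, with a median of 0.45 against -0.08 in peripheral nodes. Of all 10269 tested genes 96 were called higher in mesenteric nodes, and 1.67% in either direction. Without the mesenteric pair of library 2, 1 of the list passed. Atf3, a stress-induced transcription factor, measured 249 and 363 CPM in the mesenteric WT pools of library 1 and library 2, and 646 and 804 CPM in the Xbp1-KO pools, and 532 and 533 CPM in the peripheral WT pools and 467 and 541 CPM in the Xbp1-KO ones. Its mesenteric rise was 1.27 ± 0.14 (adjusted p = 2.74e-07) and its difference between node types was 1.35 (adjusted p = 1.33e-04). The mesenteric WT pools were the lowest of the 8 for Atf3 and the mesenteric Xbp1-KO pools the highest. Egr2, a growth-response transcription factor, rose there by 3.34 ± 0.84, and Klf6, a zinc finger factor of injury responses, had 0.23 ± 0.10 over both node types without passing. Of members picked after their values were seen, Egr1 rose by 1.02 ± 0.13 and Fos by 0.68 ± 0.10.

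The median of the same lists in blood endothelial cells of the mesenteric pools was 0.59 for immediate-early genes and 0.45 for heat shock genes, with Dnajb1 at 1.05 ± 0.26 and Atf3 at 1.30 ± 0.66, and in peripheral nodes the medians were 0.04 and -0.02. Over both node types, none of 10291 genes tested in blood endothelial cells passed in edgeR (0%), with 325 at an unadjusted p under 0.05. In mesenteric nodes alone 2 were called higher (0.0194%) and 0 lower, with 375 at an unadjusted p under 0.05. These were Igkc, an immunoglobulin light chain made by B lineage cells, and Hamp, the gene of hepcidin, both picked after their values were seen. Of the Igkc UMIs, 3149 lay in the mesenteric Xbp1-KO sum of library 1, against 2 to 99 in the other 7. Both cell classes come from the same pools and libraries.

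Of 20 tested inflammatory genes downstream of NF-kB, 5 rose in mesenteric nodes and 0 fell, with a median of 0.53 there and 0.04 in peripheral nodes, where 1.67% of all tested genes passed in mesenteric ones. With equal cell numbers, and without the mesenteric pair of library 2, 0 of the list passed there, and among cells without UMIs of other cell types 1 did. Over both node types the median was 0.21, but 0.07 without that pair, 0.05 without library 2 and 0.48 without library 1. Icam1, the adhesion molecule that holds leukocytes, stood at 207, 182, 150.4 and 113 CPM in the WT pools and 217, 265, 221 and 271 CPM in the Xbp1-KO pools. All Xbp1-KO pools lay above all WT pools, as for 110 of all 10262 tested genes that the rule did not use. The mesenteric rise of Icam1 was 0.83 ± 0.17 (adjusted p = 0.00694), and the value over both node types was 0.52 ± 0.15 (adjusted p = 0.485). Vcam1, its relative among adhesion molecules, was higher in 4 of 4 pairs at 0.30 ± 0.10 without passing. Of 19 interferon-stimulated genes, Ifit2 alone passed over both node types, 11 were below 0 and the median was -0.08, with a range over alternatives from -0.17 to 0.13. The median was 0.27 in mesenteric and -0.18 in peripheral nodes. In mesenteric nodes 2 of the list were called higher and 0 lower, and 1 differed between node types, beside 0.39% of all tested genes.

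Cxcl12, a chemokine for leukocytes and progenitors, had the smallest p in mesenteric nodes but came from few cells. It measured 19.5 and 4.90 CPM in the mesenteric WT pools of library 1 and library 2, and 210.1 and 104 CPM in the Xbp1-KO pools, a fitted rise of 3.53 ± 0.23 (adjusted p = 3.72e-13), and it differed between node types by 4.06. In both mesenteric Xbp1-KO pools 15 cells held all of its UMIs, and the 5 cells with most held 87.2% of 188 UMIs in library 1 and 91.8% of 171 in library 2. With 65 cells drawn from every pool it no longer passed. Cxcl12 is also among 12 blood endothelial markers, which summed to 2492 and 2251 CPM in mesenteric WT and 2839 and 2324 CPM in mesenteric Xbp1-KO pools. The share of cells with any blood marker UMI was 17.3% in the mesenteric WT and 24.4% in the Xbp1-KO pool of library 1, but 16.9% and 12.7% in library 2. For Ly6c1 it went from 6.52% to 16.5% in library 1 and from 1.54% to 6.33% in library 2. Flt1 went from 6.97% to 7.93% and from 6.15% to 5.88%, and Cd34 from 6.07% to 9.76% and from 10.8% to 6.79%. Among cells with no blood marker UMI the mesenteric value of Cxcl12 was 3.20 and the difference between node types 2.74, and both passed. Dcn, a proteoglycan of connective tissue and a fibroblast marker, rose by 1.48 ± 0.20, and 1 cell held 85.0% of its 107 UMIs in the mesenteric Xbp1-KO pool of library 1. Among cells with at least 3 lymphatic marker UMIs its mesenteric value was -0.40. The 8 fibroblast markers summed to 67.4 and 51.4 CPM in mesenteric WT and 194 and 459 CPM in mesenteric Xbp1-KO pools. In the peripheral pools the sum was 94.3 to 129 CPM. The 7 mural cell markers summed to 116 and 145 against 174 and 288 CPM, and the 7 T cell markers to at most 3.03 CPM in any pool. The 7 B cell markers summed to 325 CPM in the peripheral Xbp1-KO pool of library 1 and to 24.1 CPM in its WT partner, and 1 cell held 98.2% of the Igkc UMIs of that Xbp1-KO pool. Among cells without a UMI of fibroblast, mural, T, B or myeloid markers, 96 genes passed in mesenteric nodes, 77 of them among the 172, and 7 of the heat shock and 5 of the immediate-early genes were called.

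The ceiling of the subcapsular sinus is the lymphatic layer that faces the capsule of the node, and 4 of its 6 markers fell in mesenteric nodes, where 76 of all 10269 tested genes were called lower and 1.67% were called in either direction. The list had a mesenteric median of -0.92 and a peripheral one of -0.21, and none of its genes differed between node types past the threshold. Without the mesenteric pair of library 2, no gene at all passed as lower in mesenteric nodes. Ackr4, the scavenging receptor that shapes CCL21 gradients and the defining marker of the ceiling, measured 334, 418, 613 and 767 CPM in the WT pools and 375, 254, 396 and 325 CPM in the Xbp1-KO pools. It fell in mesenteric nodes by 0.98 ± 0.18 (adjusted p = 0.0101), with its highest level of the 8 in the mesenteric WT pool of library 2, and the peripheral value was -0.23 ± 0.18. Cav1, the coat protein of caveolae, fell by 0.91 ± 0.17 and Cd36, a fatty acid transporter, by 0.92 ± 0.16. The 5 tested medullary markers had a mesenteric median of 0.49, with Itga2b called at 0.64 ± 0.15, and the 8 collecting vessel and valve markers one of -0.49, with Pkhd1l1 called lower at -1.48 ± 0.33, Fgl2 called lower at -1.11 ± 0.20 and Itga9, an integrin needed for valve leaflets, called higher at 0.57 ± 0.15. Cav1, Cd36, Itga2b, Pkhd1l1, Fgl2 and Itga9 were picked after their values were seen. The floor markers, for the layer that faces the lymphocytes, had a median of 0.37 with 0 of 9 called. The 6 markers of the Ptx3 subset had a mesenteric median of 0.49 and a peripheral one of -0.07, with 2 called higher in mesenteric nodes, Stab2 and Mrc1, and 1 that differed between node types. In summed counts, a smaller share of cells of a subset and less RNA per cell cannot be told apart. Of the genes that chose the cells, which are described without a test, Lyve1 was at 1296, 1236, 993 and 671 CPM in the WT pools, against 1286, 1740.2, 953 and 1272 CPM with the knockout. Mmrn1 was at 858, 621, 1078 and 1029 CPM in the WT pools, against 816, 485, 860.1 and 612 CPM with the knockout.

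**Figure D4:**
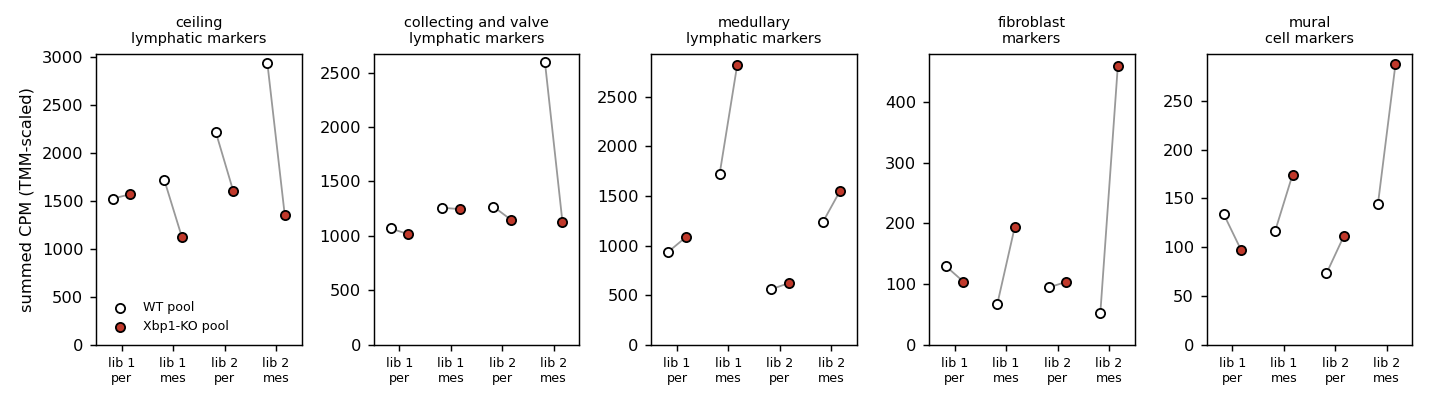
Summed levels of 5 marker lists in each pool, in CPM on axes that start at 0 (per, peripheral, mes, mesenteric), with open points for WT, filled points for Xbp1-KO and lines joining pairs. Ceiling markers go from 1716 to 1123 CPM and from 2942 to 1348 CPM in the mesenteric pairs, while fibroblast markers go up in both.

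Of 18 tested genes of haemostasis, 2 rose and 1 fell in mesenteric nodes, with a median of -0.24, and of 13 scavenger and lectin receptors 2 rose and 1 fell, with a median of 0.41, where 1.67% of all tested genes were called. F8, clotting factor VIII, which lymphatic and sinusoidal endothelium supply, measured 796, 570.2, 598 and 331 CPM in the WT pools and 862, 903, 600.5 and 542 CPM in the Xbp1-KO pools, a mesenteric rise of 0.69 ± 0.13 (adjusted p = 0.00167) beside 0.06 ± 0.12 in peripheral nodes. The hyaluronan scavenger receptor Stab2 rose by 0.56 ± 0.15 and the mannose receptor Mrc1 by 1.15 ± 0.18, while the member that fell was Cd36, given above. Selp, the adhesion molecule of Weibel-Palade bodies, rose by 1.65 ± 0.28. Anxa2, a membrane-binding annexin, fell by 0.86 ± 0.14 and the tetraspanin Cd9 by 0.96 ± 0.16. Their levels in the mesenteric WT pool of library 2 were the highest of the 8 pools, at 590.3 and 1083 CPM. Mrc1 and Selp were picked after their values were seen. Neither fall was called without the mesenteric pair of library 2.

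Among the 16 niche factors tested the median was -0.05, with 0 called. There Il33, an alarmin, and Csf1, the growth factor of macrophages, were higher in 4 of 4 pairs at 0.32 ± 0.10 and 0.27 ± 0.10, and neither passed. Of 21 tested lymphatic identity genes 12 were below 0, with 5 higher and 5 lower in 4 of 4 pairs, each 23.8% of the list beside 8.37% higher and 8.87% lower over all tested genes. None was called over both node types, and 1 was called higher and 1 lower in mesenteric nodes, Itga9 and Cd9, given above. Of 11 chemokines and atypical chemokine receptors 5 were below 0 and none was called over both node types. In mesenteric nodes 1 was called higher and 2 lower, where 1.67% of all tested genes were called. Ackr3, a scavenging receptor for CXCL12, had -0.44 ± 0.18 (adjusted p = 0.675) over both node types and fell in mesenteric nodes by 0.91 ± 0.19. Clec1b, a lectin receptor, had 0.41 ± 0.16 in a list of 13 scavenger and lectin receptors with a median of 0.09.

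Of 28 tested basement membrane and matrix genes 15 were below 0, and the laminin chain Lamb2 had -0.39 ± 0.14 and the fibre protein Emilin1 -0.27 ± 0.10, neither past the threshold over both node types, while 2 of the list were called higher and 1 lower in mesenteric nodes. Among 23 junction and cytoskeleton genes Rgs2 alone passed over both node types, and 2 were called higher and 1 lower in mesenteric nodes. The median over both was 0.02. Of 16 oxidative stress genes Duox2 alone passed over both node types, where 11 were below 0, and 2 were called higher and 1 lower in mesenteric nodes. Pdk4, the kinase that turns cells from glucose to fat as fuel, led 15 targets of glucocorticoids and FOXO with 1.06 ± 0.26 over both node types (adjusted p = 0.336) and rose by 1.52 ± 0.24 in mesenteric nodes. Klf9, a hormone-induced transcription factor, had -0.19 ± 0.09 and did not pass.

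**Figure D5:**
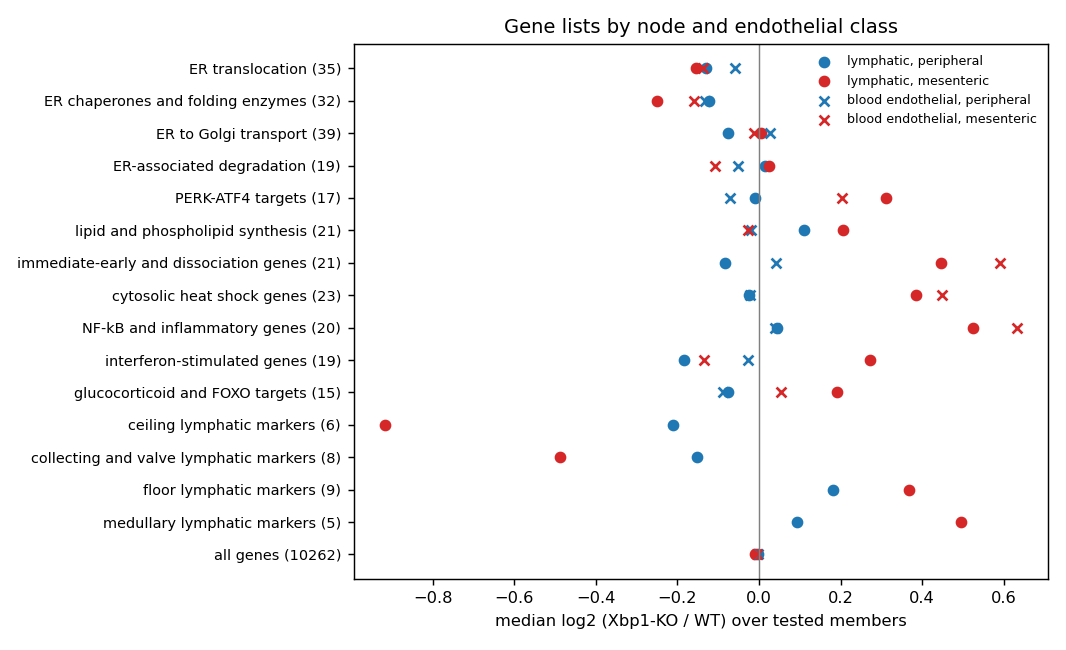
Median log2 difference of each gene list by node type (blue, peripheral, red, mesenteric), as circles for lymphatic cells and crosses for blood endothelial cells, with the number of lymphatic genes tested in brackets; crosses are left out for lymphatic subset markers. Translocation and chaperone lists lie left of 0 in both node types and both classes, while immediate-early, heat shock and NF-kB lists lie between 0.38 and 0.63 in mesenteric nodes and near 0 in peripheral ones.

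In blood endothelial cells of the same pools, 30 of 35 translocation genes and 26 of 32 chaperone genes were below 0, with medians of -0.11 and -0.14, and 6 and 9 of them were lower in 4 of 4 pairs. Of all 10291 genes tested in these cells 5207 were below 0, and 5.67% were lower and 5.33% higher in 4 of 4 pairs. Hspa5 had 0.26 ± 0.12 in these cells. The test of a different response in lymphatic and blood endothelial cells, over 16 sums, passed for 2 of 11121 genes (0.018%), of which 1 is a gene that chose the cells. The other was Marco, a scavenger receptor of medullary sinuses, with a difference of 1.49 ± 0.25 (adjusted p = 0.0308). It averaged 13.9 CPM in the WT and 6.86 CPM in the Xbp1-KO sums of blood endothelial cells, against 451, 1169, 251 and 941 CPM and 592, 2126, 209 and 1012 CPM in lymphatic pools, and DESeq2 called no gene in this test.

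The change also differed between the libraries for 14 genes (0.136%), of which 6 were the sex-linked Ddx3y, Eif2s3y, Uty, Tsix, Kdm5d and Xist. The one with the smallest p among the others was Ccl2, a chemokine for monocytes, which measured 78.9, 66.1, 25.7 and 34.3 CPM in the WT pools and 36.0, 54.8, 135 and 159 CPM in the Xbp1-KO pools. It was lower with the knockout in both pairs of library 1 and higher in both of library 2, with a difference of 3.18 ± 0.29 (adjusted p = 2.08e-06), and 1 cell held 44.6% of its UMIs in the peripheral Xbp1-KO pool of library 2.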

How the data were processed

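Each library was deposited as a matrix of UMI counts per gene and cell with 32285 genes and the hashtag counts. The file headers name Cell Ranger 6.0.1, and the submitters' processing notes name Cell Ranger 6.1 and the mm10 genome. The gene annotation and the use of introns and strand are not given in the sources used here. The members and gene lists were chosen with earlier results of these data known.

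Barcodes were kept and classed as the opening of the report states. The hashtag rule removed barcodes with mixed tags, and no doublet caller was run, so doublets within 1 tag remain. Raw counts were summed per pool, and levels are CPM. edgeR 4.0.16 (R 4.3.3, limma 3.58.1) fitted 10269 genes that passed filterByExpr by robust quasi-likelihood with TMM scaling, a term for each of 4 pairs and genotype, and Benjamini-Hochberg adjustment over all of them at 0.05. Standard errors were taken from the log2 difference and its F statistic. A pair shares its library and node type by the design of the pools. Effects by node type, by library and by cell class came from fits with the matching interaction. Pair ratios used CPM plus 1. Counting error is larger in the smaller sums, and intervals of single counts were not computed.

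Genes were named by rule: the targeted gene, the genes called over both node types in the same direction in 4 of 4 pairs (up to 12 that rose and 12 that fell most), every called member of a list or else the 2 with the smallest p, and the 5 with the smallest p in each other test. Some genes that the rule names are not reported here. Alternatives were DESeq2 1.42.0, other scaling, filters, blocks and cell cut-offs, thinning, and leaving out each library or pair. Those for single node types, other than scaling, filters and DESeq2, were chosen after seeing the data. The procedure was tested on simulated data. Python 3.11.15 with numpy 2.4.6, pandas 2.3.3 and scipy 1.17.1 made the sums.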

Additional observations from a re-analysis of the deposited data

Results flagged for a closer look

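Ern1, the gene of IRE1, had 1 WT pool apart from the others. The peripheral WT pool of library 2 stood at 19.8 CPM and the nearest WT pool at 28.4 CPM. The peripheral Xbp1-KO pool of the same library was at 19.6 CPM, against 28.0 to 42.5 CPM in the other 3. Chance gives such a gap in about 1 of 20 groups of this size drawn alike, whereas these WT pools differ in node type and library.

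For 5 genes, the ones with the smallest p among 40, the change with the knockout differed between mesenteric and peripheral nodes. The mesenteric change exceeded the peripheral one by 4.06 for the chemokine gene Cxcl12, 1.64 for the matrix gene Dcn, 1.35 for the stress factor Atf3, 1.34 for the co-chaperone Bag3 and 1.24 for the co-chaperone Dnajb1, all on the log2 scale. Single cells weighed heavily in the first 2, as 85.0% of the Dcn UMIs in the mesenteric Xbp1-KO pool of library 1 and 46.2% of the Cxcl12 UMIs in that of library 2 came from 1 cell.

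The change also differed between the libraries for 14 genes, 6 of them sex-linked, and the 5 with the smallest p are given here. The fitted difference, library 2 minus library 1, was 18.35 for Ddx3y, 15.13 for Eif2s3y, 10.93 for Uty and -14.46 for Tsix. These 4 are sex-linked and lie at 0 UMIs in some pools, so the fitted values depend on the prior count and bound nothing. Ddx3y counted 618 and 250 UMIs in the WT pools of library 1 and 273 and 199 in the Xbp1-KO pools of library 2, against 7 or fewer in the other 4. For the chemokine gene Ccl2 the difference was 3.18.

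Marco, a scavenger receptor of medullary sinuses, changed differently in the 2 endothelial classes, by 1.49 more in lymphatic than in blood endothelial cells.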

How the results depend on the processing

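Over both node types 4 genes were called higher and 2 lower. No gene was called in either direction (0 and 0) without the replicate block, in DESeq2, without robust fitting and without the deepest 5% of cells, with 427, 302, 706 and 719 genes at an unadjusted p under 0.05. With library instead of pair as the block, and with a top tag 5 times the next, 4 were higher and 6 lower. RLE scaling gave 4 and 4, and no filter gave 51 higher and 53 lower. A minimum of 10 UMIs in every sum left 1 higher and 0 lower, as did equal cell numbers, and genotype by library and cells with no UMI of other cell types each gave 1 and 1. At least 3 marker UMIs gave 2 and 1, and no blood marker UMI and thinned sums each gave 3 and 1. Of these 4, 3 and 2 were among the 6, and the lower one was Rpl10 and Lcn2 in turn. Leaving out a library or a pair gave 0 to 52 higher and 0 to 43 lower. The cause of these shifts was not tested.

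Xbp1 passed with library as the block (-1.04), genotype by library (-0.96), RLE scaling (-1.02), no filter (-1.02), a top tag 5 times the next (-1.03), at most 5% mitochondrial UMIs (-1.01) and no UMI of other cell types (-1.01), and ran from -1.30 to -0.60 when libraries or pairs were left out. Among named genes, 790 values kept their direction and side of the threshold, 82 lost and 28 gained a call, and 2 that passed nowhere changed sign: Atf6 at 0.0041 with equal cell numbers and Ern1 at -0.034 without library 1 (up to 0.26 when libraries or pairs were left out).

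Peripheral calls, 1 in the report, were 3 with RLE scaling, 12 without a filter, 2 with a top tag 5 times the next or no UMI of other cell types, 1 to 14 with pairs left out, and 0 with 10 UMIs in every sum, DESeq2, 3 marker UMIs, no blood marker UMI, thinned sums or equal cell numbers. Mesenteric calls, 172, were 281 without a filter, 98 with 10 UMIs in every sum, 57 in DESeq2, 96 with no UMI of other cell types, 23 with equal cell numbers and 15 to 209 with pairs left out. Differences between node types, 40, were 91, 21 and 8 under the first 3 of these, 25 with no blood marker UMI, 18 with no UMI of other cell types, 0 with equal cell numbers and 8 to 68 with pairs left out. Differences between libraries, 14, were 42 without a filter, 5 with 10 UMIs in every sum and 8 in DESeq2, and differences between cell classes, 2, were 16, 0 and 0. The smallest sum, the mesenteric WT pool of library 2, held 426851 UMIs from 65 cells.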
